A study of Mus musculus with 6 samples.

Results

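Egr1, Egr3, Nr4a1, Nr4a2 and Nr4a3 are genes for transcription factors that are switched on within minutes of a stimulus, and they were selected by symbol from the 19954 gene symbols of a single-nucleus count table of mouse spinal cord. Of these 5 genes, 4 are described here and Egr3 was not analysed here. The 6 samples came from wild type C57BL/6 mice with a severe contusion of the thoracic cord that paralysed both legs, and nuclei were taken after 30 min on a treadmill. The 3 TESS samples had targeted epidural electrical stimulation of the cord together with agonists of the 5-HT1a and D1 receptors, and the 3 CON samples, labelled as paralyzed, were on the treadmill without it. The labels do not say whether the CON mice also had the agonists, nor whether each sample is 1 animal or a pool, so p-values measure the spread between these samples. The source is labelled as lumbar cord, whereas the protocol for nuclei speaks of dissecting the injured thoracic segment, and which of the 2 holds could not be settled from the labels.

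Egr1 (GRCm38, GENCODE vM21: chromosome 18 from 34859823 to 34864984, plus strand) encodes a zinc finger factor that binds GC-rich sites, and Egr3 encodes a close relative. Nr4a1 (Nur77), Nr4a2 (Nurr1) and Nr4a3 (Nor1) encode orphan nuclear receptors, which act without a known hormone and can bind DNA alone. The products of Nr4a1 and Nr4a2 can also bind it with a retinoid X receptor. In neurons these genes respond to calcium and cAMP through the factors CREB, SRF and MEF2, and in vessels Egr1 and Nr4a1 respond to growth factors, inflammation and shear stress. Their transcripts are short-lived, so nuclear RNA reports recent transcription.

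The table held 18514 nuclei, of which 6035 were neurons in 38 subtypes by the authors' annotation, while the design text states 20484 nuclei and 6171 neurons. The samples held 2192 to 2839 nuclei in TESS and 3416 to 3780 in CON, with a median of 1210 to 2130 unique molecular identifiers (UMIs, 1 per captured RNA molecule) per neuron in TESS and 1512 to 2104.5 in CON. A batch number given by the authors was 3 in TESS 1, CON 1 and CON 2, whereas TESS 2, TESS 3 and CON 3 each had a batch of their own. Of 18308 distinct cell barcodes, 205 were found in more than 1 library. The neuron markers summed to 6033 to 6233 CPM (a gene's UMIs scaled to a common total of UMIs in the class) in TESS neurons and 5556 to 6041 in CON neurons, against 741 in endothelial nuclei of all samples. No doublet caller was run here, and whether doublets had been removed is not given in the sources used here.

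In the same annotation Nr4a1 lies on chromosome 15 from 101254269 to 101274795 (plus strand), Nr4a2 on chromosome 2 from 57106830 to 57124003 (minus strand) and Nr4a3 on chromosome 4 from 48045153 to 48086447 (plus strand). No other annotated gene overlaps any of the 4 protein-coding genes. RefSeq promoters (GRCm38.p6) were matched for the 3 Nr4a genes. They are shown because these genes were counted together below and because each holds repeats of TGACG, the core of the cAMP response element that CREB binds, which is marked in capitals on either strand (CGTCA on the other strand). The stretch of Nr4a1 is chr15:101266596-101266845 (plus strand), that of Nr4a2 is chr2:57124004-57124253 (minus strand) and that of Nr4a3 is chr4:48045055-48045152 (plus strand).
Nr4a1: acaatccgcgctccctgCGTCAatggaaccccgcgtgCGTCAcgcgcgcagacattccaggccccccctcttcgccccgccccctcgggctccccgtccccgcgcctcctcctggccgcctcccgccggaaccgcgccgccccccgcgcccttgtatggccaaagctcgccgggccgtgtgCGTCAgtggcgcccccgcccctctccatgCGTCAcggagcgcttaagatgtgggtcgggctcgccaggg
Nr4a2: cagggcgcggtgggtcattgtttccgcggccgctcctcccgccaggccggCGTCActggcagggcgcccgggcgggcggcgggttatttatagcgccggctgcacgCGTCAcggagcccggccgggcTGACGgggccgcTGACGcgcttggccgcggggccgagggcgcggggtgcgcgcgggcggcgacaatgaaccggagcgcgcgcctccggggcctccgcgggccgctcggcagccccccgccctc
Nr4a3: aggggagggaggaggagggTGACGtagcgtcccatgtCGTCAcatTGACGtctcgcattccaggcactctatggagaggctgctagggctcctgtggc
The Nr4a1 and Nr4a2 stretches are the 250 bases before the RefSeq start site, which for Nr4a1 lies inside the gene's annotated span. The Nr4a3 stretch ends where the first GENCODE exon begins. TGACG was found 4 times in the 250 bases of Nr4a1, 4 times in those of Nr4a2, and 4 times in those of Nr4a3, of which 3 lie in the stretch printed. Of 32851 RefSeq promoters of that length, 17.8% held TGACG at least 1 time and 0.688% held it 3 or more times. The Egr motif GCGGGGGCG, which was searched together with GCGTGGGCG on both strands and occurred in 3.06% of promoters, was found in Nr4a1 on the minus strand. TATAAA, which occurred in 12.4% of promoters, was found in Nr4a2 on the strand opposite to the one printed, at -164 to -159 from the start site. The full element TGACGTCA (1.55% of promoters), the Nr4a site AAAGGTCA (1.34%) and the CArG box (1.47%) had no match in the 3 promoters. These matches are descriptions of sequence and were not tested for binding.

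The 4 genes were sparse. Over all 18514 nuclei the table held 234 UMIs of Egr1, 140 of Nr4a1, 83 of Nr4a3 and 43 of Nr4a2. Neurons held 62.8% of the Egr1 UMIs, 62.9% of the Nr4a1 UMIs, 51.2% of the Nr4a2 UMIs and 85.5% of the Nr4a3 UMIs. In CPM, with all 6 samples summed, endothelial cells stood highest for 3 of the genes, at 78.4 CPM of Egr1, 86.2 of Nr4a1 and 39.2 of Nr4a2. For Egr1 and Nr4a1 the TESS samples carry that rank: summed endothelial Egr1 was 200.2 CPM in TESS and 6.24 CPM in CON, from 1 UMI, where neurons had 22.1 CPM in TESS and 6.82 CPM in CON. Summed endothelial Nr4a1 was 221 CPM in TESS and 6.24 CPM in CON, also from 1 UMI, and neurons had 11.8 CPM in TESS and 4.91 CPM in CON. With both groups summed, Egr1 followed at 22.0 CPM in oligodendrocyte precursor cells, 14.6 in microglia, 12.5 in neurons, 10.3 in oligodendrocytes and 3.87 in astrocytes. Nr4a1 followed at 11.0 CPM in oligodendrocyte precursor cells, 7.50 in neurons, 6.49 in microglia, 4.12 in oligodendrocytes and 3.87 in astrocytes. Nr4a2 lay at 4.87 CPM or lower in the 5 types other than endothelial cells, with 22 UMIs in neurons. Nr4a3 stood highest in neurons at 6.05 CPM, against 3.92 CPM in endothelial cells, a value that rests on 1 UMI. The TESS samples carry this rank too, with 61 of the 71 neuron UMIs. The 1 endothelial UMI was in CON, where it made up 6.24 CPM. That was above the summed level of CON neurons, which came from 10 UMIs.

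**Figure D1:**
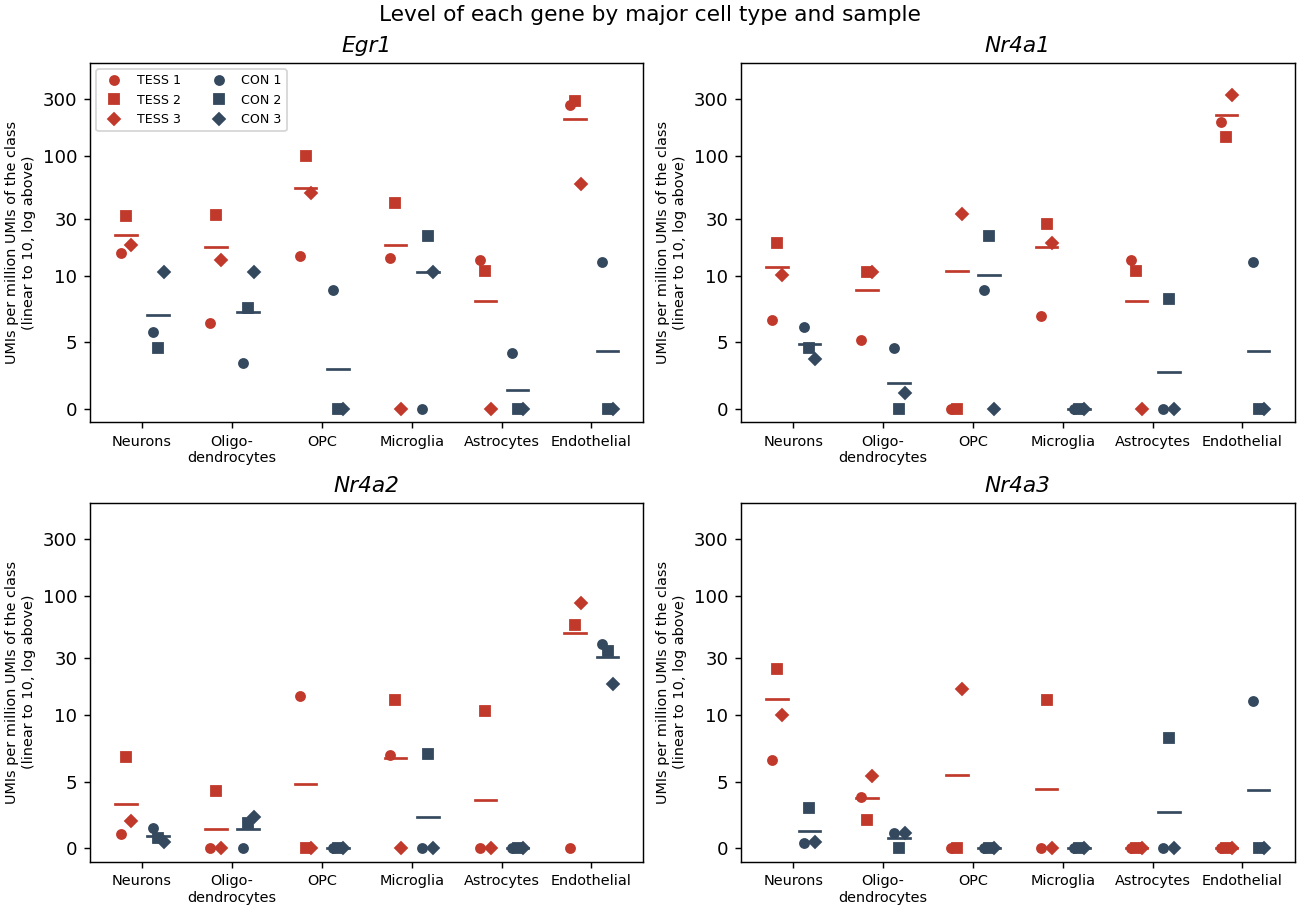
CPM of each gene in the class (vertical axis, linear up to 10 and logarithmic above) in 6 major cell types, with TESS samples in red left of CON samples in blue; each point is 1 sample and each bar the mean of 3. Endothelial Egr1 and Nr4a1 lie at 58.6 CPM or higher in all 3 TESS samples and at 13.1 CPM or lower in all 3 CON samples. Nr4a3 is highest in neurons with all 6 samples summed, but not in CON alone.

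All 4 genes fell below the minimum count in the fit that compared levels between cell types, so that comparison was made with no filter on low counts, an alternative chosen after the data were seen (edgeR quasi-likelihood, sample as a block, Benjamini-Hochberg adjustment). On the log2 scale the level in neurons was 1.73 ± 0.407 (SE) below that in endothelial cells for Egr1 (log2 difference -1.73, adjusted p = 0.000117). For Nr4a1 the log2 difference was -2.55 ± 0.427 (adjusted p = 2.32e-08) and for Nr4a2 it was -3.42 ± 0.741 (adjusted p = 2.52e-05). Nr4a3 did not pass, with a log2 difference of 1.37 ± 1.21 (adjusted p = 0.451). In that contrast 34.5% of all genes differed in level. These differences average over TESS and CON. For Egr1 and Nr4a1 the summed CON levels of endothelial cells and neurons given above are close, with 1 endothelial CON UMI of each gene. Nr4a2 had 5 endothelial UMIs in each group. Neurons stood above oligodendrocytes in Nr4a3, by 1.52 ± 0.486 log2 (adjusted p = 0.00454), and in Nr4a1, by 0.859 ± 0.358 (adjusted p = 0.0348), where 48.8% of all genes differed. Neurons stood above astrocytes in Egr1 by 1.86 ± 0.654 log2 (adjusted p = 0.0160), where 33.1% of all genes differed. Neurons did not differ from microglia or from oligodendrocyte precursor cells in any of the 4 genes at the threshold of 0.05, and the intervals are wide. Egr1 in neurons less that in precursor cells was -0.292 ± 0.489 log2 and Nr4a1 was 0.0289 ± 0.648. For Egr1 in neurons less that in microglia the fit gave 0.405 ± 0.478 log2 (adjusted p = 0.580), opposite in sign to the order of the summed CPM. Steps between types other than neurons were not tested.

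In neurons, Egr1 and Nr4a3 were higher in TESS than in CON samples. Nr4a3 made up 6.65, 24.3 and 10.2 CPM in TESS neurons, from 12, 39 and 10 UMIs, against 0.386, 3.07 and 0.467 CPM in CON neurons, from 1, 8 and 1 UMIs. The groups did not overlap, and TESS 2 alone held 39 of the 61 UMIs found in TESS neurons. The log2 fold change of TESS over CON was 3.28 ± 0.586 (SE; adjusted p = 0.0141, edgeR quasi-likelihood, 3 samples against 3). Nr4a3 entered this test through its TESS samples, since no CON sample reached the level that the minimum count requires. Egr1 made up 15.5, 31.8 and 18.3 CPM in TESS neurons, from 28, 51 and 18 UMIs, against 5.79, 4.61 and 10.8 CPM in CON neurons, from 15, 12 and 23 UMIs. Here too every TESS sample lay above every CON sample, and TESS 2 was again the highest. The log2 fold change was 1.66 ± 0.340 (adjusted p = 0.0209). In this class 1.04% of 11686 genes tested were called, 0.274% as higher in TESS, and in 10.9% of them every TESS sample lay above every CON sample.

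Nr4a1 made up 6.65, 18.7 and 10.2 CPM in TESS neurons against 6.18, 4.61 and 3.74 CPM in CON neurons. The lowest TESS sample stood close to the highest CON sample, and the log2 fold change of 1.25 ± 0.393 did not pass (adjusted p = 0.123, edgeR). With no filter on low counts its adjusted p was 0.0432, at a log2 fold change of 1.23, and 1.72% of genes were called, 0.446% as higher in TESS. Nr4a2 had 2, 11 and 2 UMIs in TESS neurons (1.11, 6.86 and 2.03 CPM) and 4, 2 and 1 UMIs in CON neurons (1.54, 0.769 and 0.467 CPM). Its groups overlapped and it fell below the minimum count, and with no filter its log2 fold change was 1.74 ± 0.727 (adjusted p = 0.274). The ratio of its summed levels, TESS over CON, was 3.58 with a 95% counting interval of 1.37 to 10.4, which does not cover the spread between samples.

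The neuron calls leaned on single libraries. Without TESS 2, Egr1 had a log2 fold change of 1.22 (adjusted p = 0.125), Nr4a3 of 2.46 (adjusted p = 0.0683) and Nr4a1 of 0.66 (adjusted p = 0.519), and the Egr1 call also ended without TESS 3, CON 1 or CON 2 (log2 1.44 to 1.75, adjusted p 0.0514 to 0.0695). The Nr4a3 call also ended without CON 3 (2.94, adjusted p = 0.0825), while without CON 2, which held 8 of the 10 CON neuron UMIs, its log2 fold change was 4.84 (adjusted p = 0.00208). In the batch that holds both groups, TESS 1 against CON 1 and CON 2, the log2 fold changes were 1.54 for Egr1, 1.87 for Nr4a3 and 0.272 for Nr4a1 (adjusted p 0.758 to 0.945), with 1 TESS sample assumed to vary as the CON samples did. With batch as a term they were 1.53, 1.87 and 0.27 (adjusted p 0.734 to 0.922). Outside batch 3 the batch and the group cannot be told apart. In neurons the summed level of 5 neutrophil and blood markers was 54.9 to 108 CPM in TESS and 23.9 to 59.6 CPM in CON, and that of 4 endothelial markers was 1.87 to 6.65 CPM in TESS and 5.00 to 10.8 CPM in CON. The part of the blood markers in these results was not tested.

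**Figure D2:**
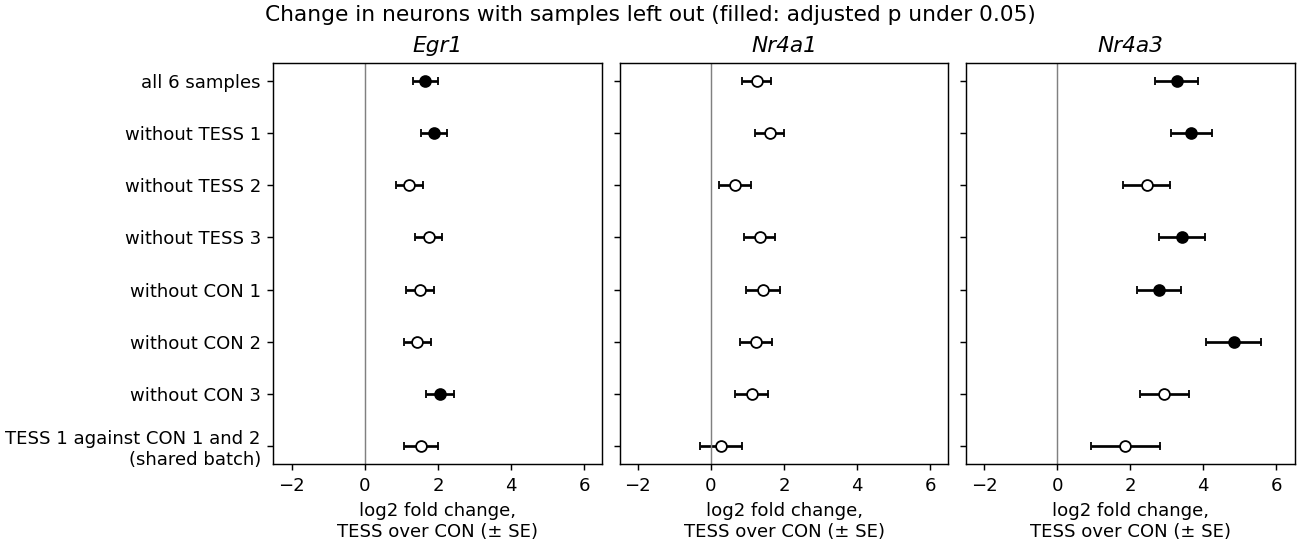
Log2 fold change of TESS over CON in neurons (horizontal axis, ± SE) for Egr1, Nr4a1 and Nr4a3, with all 6 samples, with each sample left out and within the shared batch; filled points have an adjusted p under 0.05 (edgeR). All points lie above 0, the lowest being Nr4a1 in the shared batch at 0.272, and without TESS 2 none of the 3 genes is called.

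With all nuclei summed, 3 genes rose in TESS: Nr4a3 by 3.01 ± 0.541 log2 (adjusted p = 0.0183), Nr4a1 by 1.80 ± 0.362 (adjusted p = 0.0324) and Egr1 by 1.74 ± 0.342 (adjusted p = 0.0318, edgeR). The share of genes called in all nuclei was 0.754%, and 0.254% were called as higher in TESS. Such a sum mixes cell types. Neurons were 735 of 2641 nuclei in TESS 1, 1072 of 2839 in TESS 2 and 703 of 2192 in TESS 3. In CON they were 1194 of 3646, 1094 of 3416 and 1237 of 3780. The part of cell make-up in these changes was not tested. Egr1 made up 15.2, 36.7 and 17.7 CPM in TESS against 5.25, 5.70 and 9.81 CPM in CON. Nr4a1 made up 7.96, 18.6 and 17.7 CPM in TESS against 5.50, 3.71 and 2.67 CPM in CON. For both genes every TESS sample lay above every CON sample, as in 11.8% of the genes tested. Nr4a3 made up 5.19, 17.7 and 8.22 CPM in TESS against 0.749, 2.23 and 0.594 CPM in CON, and it passed the minimum count through its TESS samples alone. Nr4a2, with 26 UMIs in TESS and 17 in CON, was below the minimum count. None of the 3 was called without TESS 2 (adjusted p 0.0681 to 0.101) or without TESS 3 (adjusted p 0.0607 to 0.172), and without any 1 CON sample a single one of them was called. Within the shared batch the log2 fold changes were 1.43 for Egr1, 0.753 for Nr4a1 and 1.73 for Nr4a3 (adjusted p 0.378 to 0.758).

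The share of neurons with at least 1 UMI of any of the 4 genes was 6.53%, 10.1% and 4.84% in TESS samples, against 2.85%, 2.83% and 2.51% in CON samples. The exact 95% binomial (Clopper-Pearson) intervals, which cover counting error only, ran from 3.37% to 6.69% in the lowest TESS sample and from 1.98% to 3.96% in the highest CON sample. These shares averaged 7.15% ± 2.67 in TESS and 2.73% ± 0.193 in CON (SD, n = 3 each; exact permutation p = 0.1, two-sided, the smallest that 3 against 3 allows). TESS neurons had fewer UMIs, a median of 1479 against 1838 in CON, so each nucleus was also thinned to 500 UMIs. The share was then 2.36% ± 0.995 in TESS and 0.741% ± 0.0736 in CON, leaving out 92 shallower TESS neurons and 43 CON neurons. For single genes at 500 UMIs the means were 1.15% in TESS and 0.372% in CON for Egr1, 0.609% and 0.0652% for Nr4a3, 0.572% and 0.268% for Nr4a1, and 0.110% and 0.0415% for Nr4a2, each with TESS given before CON. The groups were apart for Egr1 and Nr4a3 and overlapped for Nr4a1 and Nr4a2. No cell type is known to lack these genes; in astrocytes, where they were lowest, a UMI of any of them was found in 5 of 420 TESS nuclei (1.19%, median depth 515.5 UMIs) and 3 of 671 CON nuclei (0.447%, median depth 741 UMIs). Thinned to 500 UMIs, TESS astrocytes averaged 1.15% ± 1.06 and CON astrocytes 0.312% ± 0.406, below the neurons of the same group. The part of free RNA in these shares was not tested.

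**Figure D3:**
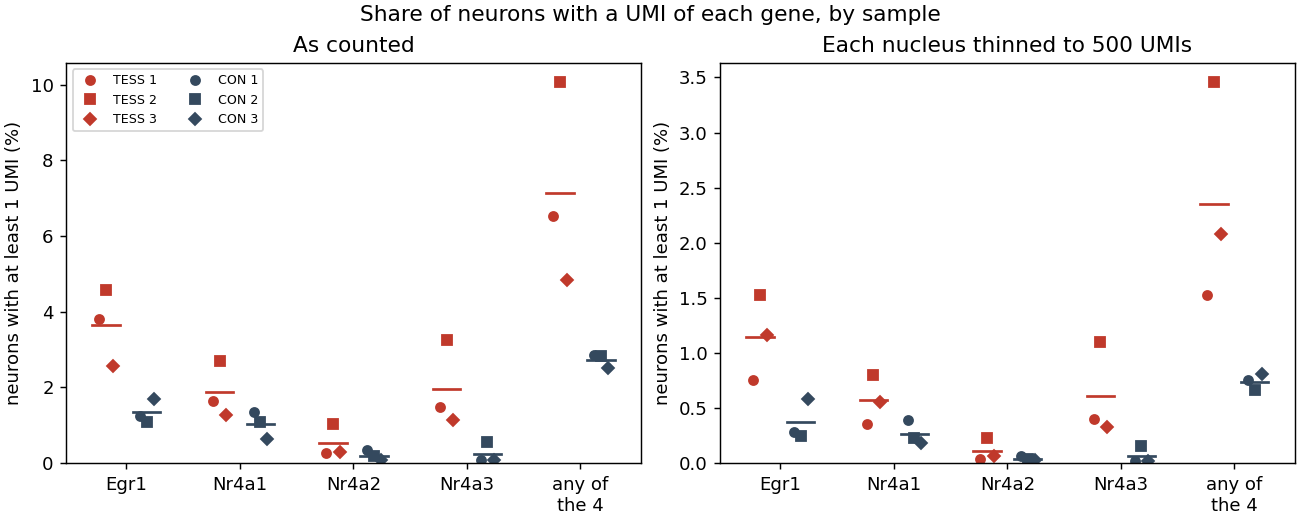
Percent of neurons with at least 1 UMI of each gene and of any of the 4 (vertical axes), as counted and after each nucleus was thinned to 500 UMIs; TESS samples are red and left of CON samples in blue, each point is 1 sample and each bar the mean of 3. For any of the 4 genes the TESS samples lie at 4.84% to 10.1% and the CON samples at 2.51% to 2.85%, and the order of the groups is the same after thinning.

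Positive nuclei mostly carried a single UMI. Of 95 Egr1-positive TESS neurons 93 had 1 UMI, as had 46 of 48 in CON, and no neuron had more than 2 UMIs of Egr1 or of Nr4a1. UMIs of 2 or more of the 4 genes were found together in 24 of 190 positive TESS neurons and in 3 of 96 positive CON neurons. By sample these were 5, 16 and 3 neurons in TESS and 2, 1 and 0 in CON, so TESS 2 held most of them. Neurons with 2 or more genes had a median of 2099 UMIs in TESS and 2036 in CON, deeper than the neurons of their groups as a whole. Joint detection also rises with the share of neurons positive for each gene, which was higher in TESS. The numbers expected from those shares were not computed, so these counts do not show more joint expression per neuron.

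Neurons were divided by transmitter genes into 20 excitatory and 17 inhibitory subtypes, with the motor neurons apart. In excitatory neurons Egr1 had 5, 26 and 10 UMIs in TESS (6.89, 36.5 and 24.2 CPM) and 7, 3 and 9 UMIs in CON (6.19, 2.40 and 8.68 CPM). TESS 1 lay inside the CON range, and Egr1, like the other 3 genes, fell below the minimum count of 10, at which 0.94% of genes were called. At a minimum count of 5, Egr1 had a log2 fold change of 1.95 ± 0.482 (adjusted p = 0.0362, with 0.832% of genes called) and Nr4a1 of 1.36 ± 0.482 (adjusted p = 0.187). With no filter Egr1 (1.94, adjusted p = 0.00212) and Nr4a3 (3.01, adjusted p = 0.00154) were called in excitatory neurons, with 0.873% of genes. In inhibitory neurons Egr1 had 23, 22 and 8 UMIs in TESS (22.2, 26.3 and 14.6 CPM) and 7, 9 and 14 UMIs in CON (5.07, 6.78 and 13.1 CPM). These groups did not overlap, but the log2 fold change of 1.40 ± 0.374 did not pass (adjusted p = 0.0870, edgeR), where 0.229% of genes were called and 9.57% had every TESS sample above every CON sample. Nr4a3 had 9, 24 and 3 UMIs in TESS inhibitory neurons and 0, 4 and 1 in CON, and in excitatory neurons 3, 14 and 7 in TESS and 1, 4 and 0 in CON. At a minimum count of 5 its log2 fold change in inhibitory neurons was 3.35 ± 0.684 (adjusted p = 0.0259, with 0.177% of genes called). It passed that minimum count through its TESS samples alone. With no filter Egr1 (1.37, adjusted p = 0.0239) and Nr4a3 (3.32, adjusted p = 5.25e-05) were called in inhibitory neurons, with 0.771% of genes. The 2 subtypes Fxyd6 and V1/V2b/Slit2 were classed as inhibitory by UMI counts. Fxyd6 had 176 UMIs of excitatory and 247 of inhibitory transmitter genes, and V1/V2b/Slit2 had 144 and 481. The test of the difference between the classes was not refitted with them moved. Counted as excitatory, they bring Egr1 above the minimum count of 10 there, at a log2 fold change of 1.98 ± 0.415 (adjusted p = 0.0117, with 0.849% of genes called). That move takes their Egr1 UMIs out of the inhibitory class. Fxyd6 held 12 of them in TESS and 5 in CON, and V1/V2b/Slit2 held 4 in TESS and 0 in CON.

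The difference between the classes was tested as an interaction. The TESS change in excitatory neurons less that in inhibitory neurons was 0.491 ± 0.555 log2 for Egr1, 0.274 ± 0.713 for Nr4a1 and -0.349 ± 1.08 for Nr4a3 (adjusted p 0.957 to 0.982, edgeR, sample as a block), where 0.0556% of genes were called. With standard errors of 0.555 to 1.08 log2, these tests do not show that the classes responded alike. The unadjusted p values were 0.378, 0.702 and 0.748.

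Across neuron subtypes, the 24 with at least 10 nuclei in every sample were compared. The 4 genes were not tested there, since none passed a minimum count of 10 or of 5 in any subtype (the same fits called 0.0828% and 0.0278% of gene tests) and fits with no filter were not run by subtype, so the following are summed counts with no test. Egr1 CPM was higher in TESS in 22 of 24 subtypes and lower in 1, Nr4a3 was higher in 16 and lower in 2, Nr4a1 was higher in 10 and lower in 8, and Nr4a2 was higher in 5, lower in 2 and equal in 17. Subtypes share the 6 libraries, so these counts are not independent. In TESS the most UMIs of the 4 genes together were in V1/Adam23, a ventral inhibitory subtype, with 23 in TESS and 5 in CON, while Fxyd6 held 19 in TESS and 12 in CON, the most in CON and over both groups. V2a/Etl4 held 22 in TESS and 5 in CON, and V2a/Slc17a6 held 19 in TESS and 6 in CON; both are excitatory V2a interneurons, a class that takes part in locomotor circuits. In CPM Crh stood highest, at 162 CPM in TESS from 12 UMIs and 11.8 CPM in CON from 2 UMIs. Of its 12 TESS UMIs 10 were in TESS 2, as were 8 of the 10 in Grpr, 18 of the 23 in V1/Adam23 and 14 of the 22 in V2a/Etl4. In Fxyd6 the 19 TESS UMIs lay otherwise, with 11 in TESS 1, 7 in TESS 2 and 1 in TESS 3. V1/V2b/Slit2 held 5 of the 15 Nr4a2 UMIs of TESS neurons. The exception in direction was Trh, with 1 UMI in TESS and 4 in CON, and Bnc2 had none.

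**Figure D4:**
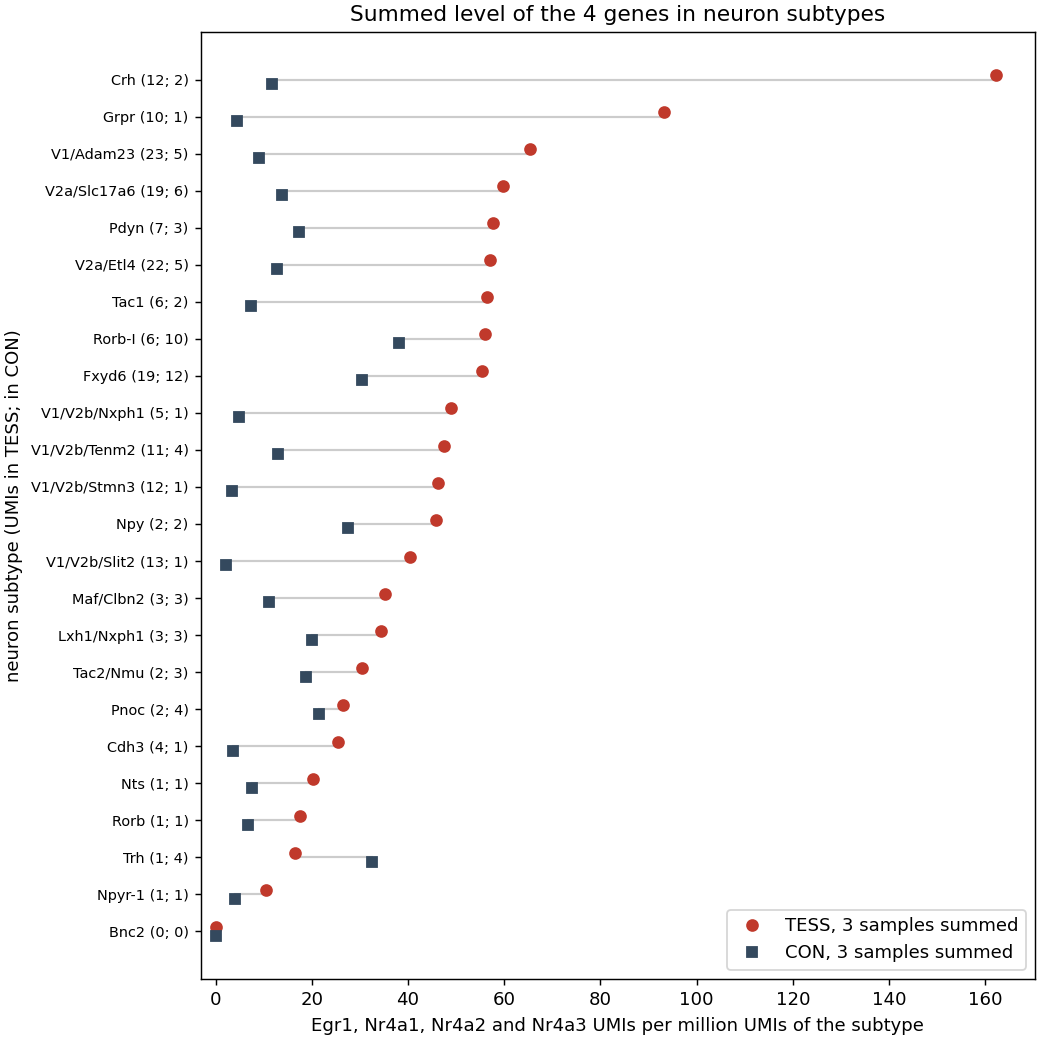
UMIs of Egr1, Nr4a1, Nr4a2 and Nr4a3 together in CPM of the subtype (horizontal axis) in 24 neuron subtypes, with 3 samples summed per group; TESS is a red circle drawn above the blue square of CON, and the UMI counts of TESS and of CON follow each name. TESS is higher in 22 of 24 subtypes, Crh is farthest to the right at 162 CPM in TESS, and most points rest on fewer than 15 UMIs.

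Endothelial cells were few, 25, 38 and 28 nuclei in TESS samples and 43, 25 and 62 in CON samples, yet they held 15.7% of the Nr4a1 and 8.55% of the Egr1 UMIs of the table. Egr1 had 7, 10 and 2 UMIs in TESS (270, 287 and 58.6 CPM) and 1, 0 and 0 UMIs in CON (13.1, 0 and 0 CPM). Nr4a1 had 5, 5 and 11 UMIs in TESS (193, 144 and 322 CPM) and likewise 1, 0 and 0 UMIs in CON. Both genes were present in every TESS sample and in 1 of 3 CON samples, and the highest TESS sample differed between them, TESS 2 for Egr1 and TESS 3 for Nr4a1. The ratio of summed levels, TESS over CON, was 32.1 for Egr1 with a 95% counting interval of 5.10 to 1333, and 35.5 for Nr4a1 with an interval of 5.70 to 1466. At least 1 Egr1 UMI was found in 16%, 23.7% and 7.14% of TESS nuclei and in 2.33%, 0% and 0% of CON nuclei, and at least 1 Nr4a1 UMI in 12%, 10.5% and 28.6% of TESS nuclei and in 2.33%, 0% and 0% of CON nuclei. A share of 0 has an upper 95% limit of 13.7% in CON 2 and 5.78% in CON 3. For either gene the exact permutation p over the shares was 0.1, two-sided, the smallest possible, and in astrocytes the share with Egr1 was 0.476% in TESS and 0.149% in CON.

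At the minimum count of 10, 583 genes were tested in endothelial cells and none of the 4 genes was among them. With no filter (13261 genes), Egr1 rose by 4.30 ± 0.956 log2 (adjusted p = 0.00811) and Nr4a1 by 4.43 ± 0.932 (adjusted p = 0.00336, edgeR), where 0.136% of genes were called and 0.083% called as higher in TESS; 3.85% of genes with a UMI had every TESS sample above every CON sample. These fold changes rest on 1 CON UMI each and depend on the prior count. With samples left out in turn, an alternative chosen after the data were seen, Nr4a1 was not called without TESS 3 (4.03, adjusted p = 0.181) or without CON 3 (4.00, adjusted p = 0.0556), and Egr1 was called only without TESS 3 (4.77, adjusted p = 0.00225; in the other 5 fits 0.0504 to 0.376). Within the shared batch the log2 fold changes were 4.26 for Egr1 and 3.78 for Nr4a1 (adjusted p 0.823 and 0.889). The change in endothelial cells less that in neurons was 3.11 ± 1.34 log2 for Egr1 and 3.62 ± 1.36 for Nr4a1, neither of which passed over 19610 genes (edgeR with no filter, adjusted p = 1 for both, with 0.0051% of genes called). Nr4a2 had 0, 2 and 3 UMIs in TESS and 3, 1 and 1 in CON, and the only Nr4a3 UMI was in CON 1.

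The endothelial identity of these nuclei was checked. All 4 endothelial markers (Flt1, Cldn5, Pecam1, Ly6c1) were detected, summing to 7965 to 13020 CPM in TESS and 6665 to 11027 CPM in CON, against 9.02 CPM in astrocytes of all samples. Microglia stood higher than astrocytes, with Flt1 alone at 216 CPM, from 50 UMIs in TESS and 83 in CON. Of 25 TESS nuclei with Egr1 or Nr4a1 all 25 had a UMI of an endothelial marker, as had both such CON nuclei. Markers of other cell types were found as well. Oligodendrocyte markers were found in 14 of those 25 and in 33 of the 66 TESS endothelial nuclei without either gene. For neuron markers the numbers were 11 and 23, and for astrocyte markers 9 and 18. Pericyte and fibroblast markers were found in 6 of the 25 and in 13 of the 66. Where this RNA of other types came from was not tested. Blood markers were found in 10 of the 25 and in 8 of the 66, and they summed to 632 to 7974 CPM in TESS against 139 to 2379 CPM in CON endothelial nuclei. Of the 5 blood markers these UMIs were nearly all of the haemoglobin genes Hbb-bs (223 in TESS, 152 in CON) and Hba-a1 (184 and 132), with at most 1 UMI of S100a8 or S100a9 in either group and 0 of Ptprc, the leukocyte marker. The TESS nuclei with either gene were also deeper, with a median of 1025 UMIs against 692.5 in those without. With each endothelial nucleus thinned to 500 UMIs, which left out 23 TESS and 36 CON nuclei, the share with Egr1 averaged 11.8% ± 9.63 in TESS and 0.162% ± 0.280 in CON, and that with Nr4a1 averaged 9.78% ± 5.38 in TESS and 0.362% ± 0.627 in CON (SD, n = 3 each), with the groups apart for both. The part of blood RNA in the endothelial result was not tested.

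Glia gave no call. In oligodendrocytes Egr1 had 5, 15 and 5 UMIs in TESS and 3, 8 and 9 in CON, with overlapping levels. Nr4a1 had 4, 5 and 4 UMIs there in TESS and 4, 0 and 1 in CON. Its level was 5.17 CPM or higher in TESS and 4.58 CPM or lower in CON. Every TESS sample likewise lay above every CON sample in 8.24% of genes with a UMI in oligodendrocytes. In oligodendrocyte precursor cells Egr1 had 1, 5 and 3 UMIs in TESS and 1, 0 and 0 in CON, a ratio of summed levels of 13.8 with a counting interval of 1.91 to 604. In microglia Nr4a1 had 1, 2 and 1 UMIs in TESS and none in CON. None of the 4 genes passed the minimum count in these types or in astrocytes. With no filter the unadjusted p was 0.0102 for Nr4a1 and 0.0282 for Egr1 in oligodendrocytes, 0.0414 for Nr4a1 in microglia and 0.00509 for Egr1 in precursor cells (edgeR, adjusted p 0.244, 0.402, 0.797 and 0.787), where 1.51%, 0.177% and 0.0555% of genes were called in the 3 types in that order. With all other nuclei summed against neurons, the change in neurons less that in the rest was -0.273 ± 0.445 log2 for Egr1 (adjusted p = 0.936) and -1.60 ± 0.633 for Nr4a1 (adjusted p = 0.539), where 0.0875% of genes were called.

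Other genes of the same response were counted from fixed lists. Of 29 other immediate early genes in the table, 15 were tested in neurons, of which 5 rose and none fell, where 1.04% of all genes were called and 0.274% as higher in TESS. Their median log2 fold change was 0.68, against -0.00512 over all genes tested. The list was chosen with earlier results of these data known. Those that rose were Per1, the circadian regulator (1.67 ± 0.247, adjusted p = 0.00258), Fos, an AP-1 subunit (1.69 ± 0.371, adjusted p = 0.0264), Junb, its partner (1.40 ± 0.310, adjusted p = 0.0274), the salt-inducible kinase gene Sik1 (1.85 ± 0.423, adjusted p = 0.0330) and the antiproliferative gene Btg2 (1.97 ± 0.456, adjusted p = 0.0333). In all nuclei 23 were tested, 6 rose and none fell, where 0.754% of all genes were called and 0.254% as higher in TESS, the additional gene being Zfp36, which promotes decay of mRNAs (1.67 ± 0.373, adjusted p = 0.0475). In endothelial cells 4 were tested and Btg2 rose (2.37 ± 0.406, adjusted p = 0.0168), with 655, 345 and 410 CPM in TESS against 91.7, 69.4 and 72.6 CPM in CON; 1.54% of the 583 genes were called, 0.858% as higher in TESS. Of the other 2 Egr family genes neither was tested, and Egr4, named with Egr2 after their values were seen, had 3, 19 and 7 UMIs in TESS neurons against 1, 2 and 0 in CON neurons, a ratio of 16.1 with a counting interval of 5.00 to 82.7; 8.19% of genes with a UMI in neurons had every TESS sample above every CON sample. Egr2 had 2, 1 and 0 UMIs in TESS neurons against 0, 2 and 2 in CON neurons, a ratio of 1.25 with a counting interval of 0.183 to 7.40. In all nuclei none of the genes of 2 partner lists passed: the Egr corepressors Nab1 and Nab2 (2 tested, median 0.390 log2) and the 3 retinoid X receptors (median 0.509), where the median over all genes was -0.00128. In neurons the medians were 0.132 for the corepressors and 0.310 for the receptors, again with none called.

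By likeness of log2 CPM (pseudocount 2) over 36 sums, 1 for each of 6 cell types in each of 6 samples, the genes closest to Egr1 among 10190 were Btbd7 (Pearson r = 0.62), Tnks (0.61) and Bptf (0.61). Closest to Nr4a1 were Btbd7 (0.68), Ptpn12 (0.65) and Col4a3bp (0.61). Nr4a2 was nearest to Gbe1 (0.75), Rgs5 (0.74), a pericyte gene, and Id1 (0.72), and Nr4a3 was nearest to Hcrtr2 (0.73), 4930590J08Rik (0.62) and Matn2 (0.61). The 36 points share libraries and differ widely in depth, so these values are descriptions.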

How the data were processed

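Single-nucleus RNA was counted by the authors as UMIs per gene and nucleus (raw counts, deposited as a sparse matrix with metadata), with Cell Ranger 2.2.0, Seurat 3 and the builds mm10 and GRCm38 named in the submitters' processing notes. The deposited mitochondrial fraction per nucleus was not used in any test. The labels give no filters on nuclei, no treatment of introns and no meaning for the batch number. The genes and lists were chosen with earlier results of these data known. Genes named with values beyond the 5 are list genes that were called and the 3 nearest by likeness, by a rule written with the design. Egr2 and Egr4, added after their values were seen, and marker genes are named outside that rule, as are the untested or uncalled list names.

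Counts were summed per sample and class. TESS and CON (3 samples each) were compared with edgeR 4.0.16 (TMM, filterByExpr minimum count 10, quasi-likelihood, R 4.3.3), adjusted by Benjamini-Hochberg over all genes of the class and called below 0.05; SE is the fold change over the root of F. CPM uses all UMIs of the class as the total. Alternatives were DESeq2 1.42.0, its size factors, other minimum counts, samples left out, batch and replicate terms and equal numbers of nuclei per subtype. The fit was checked on simulated neuron counts, with changes only in genes that had more UMIs than the genes described here. That check does not cover fits on so few UMIs. Slc17a7 was not used in the transmitter rule, and 1 further gene list is not reported here. Same-numbered samples did not deviate together (correlations -0.0541, 0.00651 and -0.0364 in neurons), but so few pairs cannot exclude a shared animal, litter or day. The labels do not say whether numbers pair samples, so the main fits left them unpaired. Permutation tests used scipy 1.17.1. With a median of 1210 to 2130 UMIs per neuron, single genes of this kind gave 0 or 1 UMI in most nuclei.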

Additional observations from a re-analysis of the deposited data

How the results depend on the processing

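The log2 fold changes of Egr1, Nr4a1 and Nr4a3 in all nuclei and in neurons, and of Egr1 in inhibitory neurons, stayed positive in every alternative that gave a value (13 to 15 each). In all nuclei the number of the 4 genes called, 3 of them, ran from 0 to 3 when 1 sample was left out, and was 0 with batch as a term and 0 inside the shared batch. In neurons the 2 calls became 0 to 2 with a sample left out, 1 (Egr1, adjusted p = 0.0154; Nr4a3, 0.121) in DESeq2 without its independent filtering, which was added after seeing the data, and 0 with batch as a term, 0 inside the shared batch and 0 with equal numbers of nuclei per subtype (568 per sample), where Egr1 had a log2 fold change of 1.51 (adjusted p = 0.0521) and the others were not tested. DESeq2 with its filtering gave no adjusted p for the 3 genes in neurons. In excitatory neurons the count of 0 became 2 with no filter, 1 at a minimum count of 5, 0 to 2 with a sample left out and 1 with Fxyd6 and V1/V2b/Slit2 as excitatory. In inhibitory neurons 0 became 2 with no filter, 1 at a minimum count of 5 and 1 with the replicate number as a block (Egr1, adjusted p = 0.0479). In endothelial cells 0 became 2 with no filter, 0 to 1 with no filter and a sample left out, and 2 with no filter and the replicate block. For levels between cell types 0 became 6 with no filter. The cause was not tested, apart from the filter itself, which removes genes of few counts. The replicate block changed no other call, moving the calls over all genes in neurons to 169 from 122.

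The difference in the share of neurons with any of the 4 genes, TESS minus CON, was 1.61 percentage points at 500 UMIs, 0.984 at 300 UMIs and 4.42 as counted. In endothelial cells it was 19.6, 11.6 and 23.9 in the same order. These shares follow depth by construction. The planned level and subtype tests could not be fitted for these genes at either minimum count. Few UMIs stand behind every statement on Nr4a2, glia and single subtypes.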
